A study of Mus musculus with 6 samples.

Results

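Collagens and the proteins that fold, cross-link, trim or bind them were followed at the RNA level in a tumour cell line treated with an inhibitor of RNA methylation. Genes were taken by symbol alone: every collagen chain gene (Col, a number, the letter a and a number), the lysyl oxidase genes Lox, Loxl1, Loxl2 and Loxl3, the lysyl hydroxylase genes Plod1, Plod2 and Plod3, and Serpinh1, Bmp1, Abi3bp, Fn1 and Sparc. That rule gave 44 collagen genes and 12 others, 56 of the 55367 genes in the table. The cells were LLC, established from Lewis lung carcinoma of the mouse, labelled wild type and grown in medium with serum. They received either the solvent DMSO or 5 µM STM2457, both for 46 h, in 3 libraries each. STM2457 blocks the catalytic site of METTL3, which places N6-methyladenosine (m6A) on RNA. Nothing in the labels says that the libraries of a group were separate cultures, so the p-values measure the spread between these libraries only, which may be technical.

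Collagens are trimers of chains that wind into a triple helix. Inside the endoplasmic reticulum, prolyl hydroxylases stabilise the helix, lysyl hydroxylases prepare lysines for later cross-links, and the chaperone encoded by Serpinh1 escorts the folded procollagen. Outside the cell, proteinases such as that of Bmp1 trim the ends, and lysyl oxidases cross-link the assembled fibrils. Types I, III and V form fibrils, type IV forms the sheet of basement membranes, and type VI forms beaded filaments.

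After STM2457 the expressed genes of the set were more often lower than higher. Fn1 and Col3a1, which had the most reads of the set, fell to 0.711 and 0.750 of their DMSO levels, Col1a2 fell to 0.465, and Abi3bp, which encodes an extracellular matrix protein, fell to 0.262. Against that direction, the type IV chains Col4a1 (1.07-fold) and Col4a2 (1.13-fold), the type V chain Col5a1 (1.16-fold), the anchoring fibril collagen Col7a1 (1.55-fold), the lysyl hydroxylase Plod3 (1.20-fold) and the chaperone Serpinh1 (1.14-fold) rose. Of 27 members with a mean of at least 10 reads, 6 (22.2%) were higher and 12 (44.4%) lower at a limma adjusted p under 0.05. Over all 12618 genes tested the same rule called 30.7% higher and 25.7% lower. With libraries centred on their upper quartile those totals of 3868 higher and 3240 lower became 2819 and 4814, and the members became 5 higher and 15 lower. The median fold over the 27 members was 0.798, against 1.01 over all tested genes. The members were chosen with earlier results of these data known, so these shares and medians describe the set and do not test it. In 19 of the 27 (70.4%) the 3 libraries of one group all lay above those of the other, against 61.8% of all tested genes. Normalised reads are reads recovered from the deposited values and divided by the library's size factor. A fold is the ratio of STM2457 to DMSO that limma-voom fitted to the recovered reads, a weighted fit on a log scale, so for genes of few reads it can differ from the ratio of the means. The tests were run on the deposited log2 values, which are shrunken towards each gene's mean, so a log2 difference on that scale is smaller than the fold implies.

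**Figure D1:**
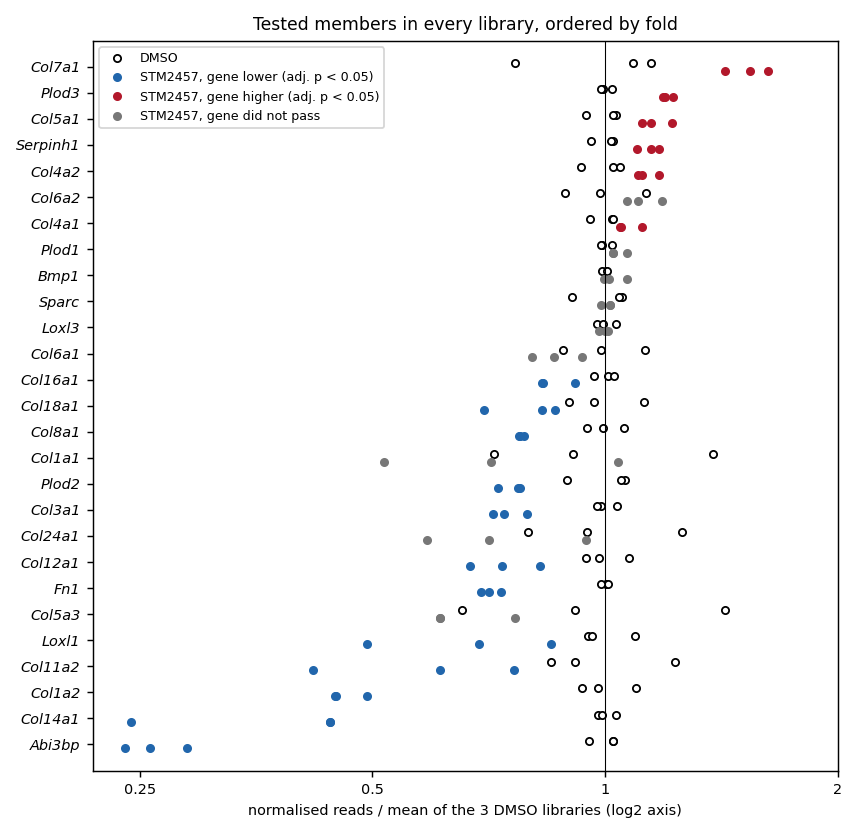
Normalised reads of the 27 tested members in each of 6 libraries, divided by the mean of the 3 DMSO libraries (horizontal log2 axis). Open circles are DMSO libraries and filled circles STM2457 libraries, coloured by the limma call. By fold, Abi3bp and Col14a1 lie farthest left and Col7a1 farthest right, with the other genes between them. Single circles can differ: that of Col11a2 in STM2457 replicate 2 lies left of those of Col14a1 in STM2457 replicates 1 and 2.

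The libraries held 17671688 to 17917228 reads in genes. Between libraries of one group the members deviated by a median size of 0.022 to 0.052 on the deposited log2 scale, most in DMSO replicate 2. As a check of the cell type, 5 markers of epithelial carcinoma were summed: Epcam and Cdh1 had 0 reads in every library, and the keratins Krt8, Krt18 and Krt19 together had 11.9 to 14.0 normalised reads in DMSO and 0 to 9.91 after STM2457. The epithelial markers were thus at or near 0 in cells labelled as a carcinoma. Markers of fibroblasts, a cell type that makes much collagen, summed to 336 to 419 normalised reads in DMSO and 379 to 458 after STM2457. Of the 8 markers 1, Thy1, was at 0, and Pi16 (0 to 1.99) and Fap (1 to 3.97) were near 0. Within that list Pdgfrb rose from 59.1, 70.5 and 65.3 to 146, 164 and 188 normalised reads, and Dpt fell from 119, 148 and 121 to 85.4, 90.4 and 109 (limma adjusted p = 2.0e-09 and 0.0035). Lum also fell, from 25, 40.7 and 22.1 to 11.9, 12.9 and 2.97 (limma adjusted p = 4.2e-04). The sum thus joins changes in opposite directions. The part of fibroblast-like cells in the results below was not tested. Leukocyte markers summed to 86.2 to 111 normalised reads, nearly all from Cd68, with Ptprc at 0 or 1 read and 3 of 6 markers at 0, and endothelial markers to 4.95 to 9.93. In bulk RNA, fewer cells of a type and less RNA per cell cannot be told apart.

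Which members the cells made was described by level, as normalised reads per kilobase of the longest coding transcript. Serpinh1 was the highest in DMSO at 6882 ± 249 reads per kilobase (SD, n = 3). Fn1 at 4797 ± 49.7, Col3a1 at 4588 ± 150 and Sparc at 4050 ± 331 followed, and the last 3 lay close to each other. Next came Col4a1 at 1757 ± 67.7, then Plod1 at 1157 ± 19.6 and Col4a2 at 1123 ± 69.3, whose levels did not differ beyond their spread. After STM2457 the order near the top changed: Sparc stood at 4076 ± 60.6, above Col3a1 at 3441 ± 180 and Fn1 at 3411 ± 101 (SD, n = 3). The type I chains, the bulk of collagen in most connective tissue, were low in these cells, with Col1a2 at 25.3 ± 2.16 and Col1a1 at 2.59 ± 0.875 reads per kilobase in DMSO.

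**Figure D2:**
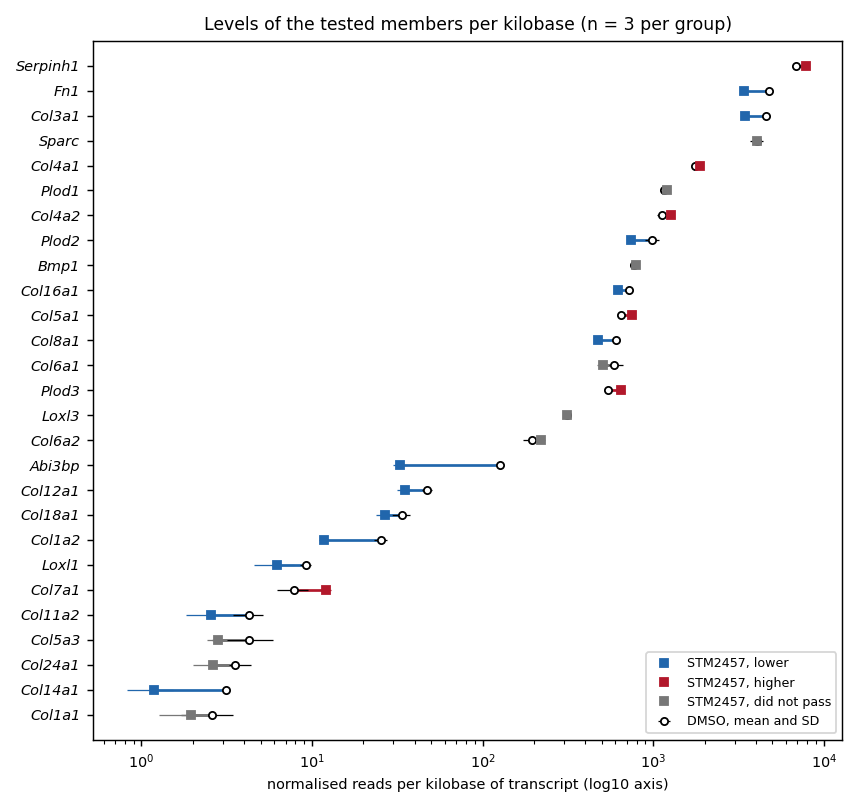
Mean and SD of normalised reads per kilobase of transcript in DMSO (open circles) and STM2457 (squares, coloured by call) for the 27 tested members, 3 libraries per group, on a log10 axis. Levels run from 6882 for Serpinh1 to 2.59 for Col1a1 in DMSO, and the lines joining the groups are short against that range except for Abi3bp, Col1a2 and Col14a1.

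Of the other 29 members, 25 had reads but a mean under 10, and 4 (Col8a2, Col19a1, Col6a5 and Col26a1) had 0 reads in every library, which allows up to 3 reads, or 0.167 to 0.170 CPM, in each. No transmembrane collagen was tested: Col13a1, Col17a1, Col23a1 and Col25a1 had 1, 3, 1 and 3 reads in all 6 libraries together. In 15 of the 25 the 6 libraries together held fewer than 10 reads, and Col9a3, just below the level needed for the test, had the most, 52. Among these low genes the lysyl oxidase Loxl2 had 14 reads in DMSO and 2 after STM2457, a ratio of 0.141 with a 95% exact counting interval of 0.0156 to 0.614. Lox, the founding lysyl oxidase, had 18 and 6 reads (ratio 0.329, interval 0.107 to 0.865), and the type V chain Col5a2 had 12 and 3 (0.247, interval 0.0447 to 0.915). Intervals were computed for the 10 low genes with 10 or more reads, and these genes are named because their intervals lay below 1. The intervals of all the others included 1. Col27a1 was the only gene with a ratio above 1, at 5 and 12 reads (2.37, interval 0.777 to 8.59). All these intervals cover counting error only. When the filter on low values was dropped, Loxl2 passed (limma adjusted p = 0.017) and Lox (0.059) and Col5a2 (0.079) did not. A pass in that fit is weak evidence. Dropping the filter also moved Col6a1 from a limma adjusted p of 0.14 to 9.1e-05 at the same log2 difference.

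Among 7 fibrillar collagens tested, 3 fell (42.9%), 1 rose (14.3%) and 3 did not pass. Over all tested genes 25.7% were lower and 30.7% higher, and counts this small only describe the class. Col3a1, the chain of type III fibrils of distensible tissues (chromosome 1, 45311538 to 45349706, plus strand, GRCm38), measured 25184, 26482 and 24918 normalised reads with DMSO and 18293, 18894 and 20247 after STM2457. The groups did not overlap, and the gene fell to 0.750 of DMSO (deposited log2 difference -0.25, SE 0.02, limma adjusted p = 4.0e-09). Its neighbour Col5a2, on the same chromosome from 45374321, was among the low genes above, so the adjoining collagen genes differed widely in level. Col1a2 (chromosome 6, 4504814 to 4541544, plus strand) encodes the alpha-2 chain of type I collagen. It measured 148, 126 and 132 normalised reads in DMSO and 66.5, 60.6 and 60.4 after STM2457, and fell to 0.465 (adjusted p = 3.5e-08). Every treated library held fewer reads than the lowest DMSO library by a wide margin.

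Col1a1, its partner chain, was near the limit of the test, with 11, 13.9 and 21.1 normalised reads in DMSO against 15.9, 10.9 and 7.93, and did not pass (adjusted p = 0.34, but 0.024 with upper-quartile centring). Col11a2, a chain of the type XI fibrils of cartilage, measured 32.0, 23.8 and 22.1 normalised reads in DMSO and 15.9, 10.9 and 19.8 after STM2457 (0.597 of DMSO, adjusted p = 0.021). Col11a2 no longer passed when DMSO replicate 1 (0.11) or STM2457 replicate 2 (0.12) was left out. Col5a3 (0.698 of DMSO, adjusted p = 0.084) and Col24a1 (0.749, 0.16) did not pass. With upper-quartile centring both were lower (0.007 and 0.014), and Col5a3 also without DMSO replicate 1 (0.012). Col5a1, whose chain helps to start fibrils, went the other way, from 5602, 5122 and 5550 normalised reads to 6058, 6227 and 6613. That is a rise of 1.16-fold (adjusted p = 1.0e-04), with every treated library above every control.

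The sequences before the start sites of Col3a1 and Col1a2 are printed because these were the fibrillar collagen genes with the most reads that fell. Each line gives the 250 bases up to the start site, 5′ to 3′ on the plus strand, from RefSeq on GRCm38.p6, at chr1:45311288-45311537 for Col3a1 and chr6:4505368-4505617 for Col1a2. The RefSeq start of Col1a2 lies downstream of the GENCODE gene start. Capitals mark TATAAA in Col3a1 and CCAAT in Col1a2.
Col3a1: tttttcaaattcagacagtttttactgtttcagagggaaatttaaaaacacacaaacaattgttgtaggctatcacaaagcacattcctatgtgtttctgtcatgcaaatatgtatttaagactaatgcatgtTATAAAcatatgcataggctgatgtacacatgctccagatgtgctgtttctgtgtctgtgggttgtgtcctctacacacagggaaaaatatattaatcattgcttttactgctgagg
Col1a2: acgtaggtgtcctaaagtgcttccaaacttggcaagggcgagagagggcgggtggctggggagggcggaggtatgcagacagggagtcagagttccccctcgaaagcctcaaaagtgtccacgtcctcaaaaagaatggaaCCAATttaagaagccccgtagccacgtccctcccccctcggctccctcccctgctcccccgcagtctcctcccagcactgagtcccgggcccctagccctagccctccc
The Col3a1 window holds 35.2% G and C and the Col1a2 window 62.0%, so the windows differ widely in base composition. TATAAA begins 117 bases before the Col3a1 start, and CCAAT 109 bases before that of Col1a2.

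The network collagens split. Col4a1 and Col4a2, the common chains of basement membrane, rose, and the short-chain network collagen Col8a1 and the basement membrane collagen Col18a1 fell. Col4a2 measured 7419, 6736 and 7576 normalised reads in DMSO and 7990, 8090 and 8509 after STM2457 (1.13-fold, limma adjusted p = 9.2e-04). Col4a1 measured 11871, 11104 and 11889 in DMSO and 12159, 12199 and 12986 after STM2457 (1.07-fold, adjusted p = 0.033). Col4a1 no longer passed after upper-quartile centring (0.41), nor when DMSO replicate 2 (0.12), STM2457 replicate 2 (0.056) or STM2457 replicate 3 (0.2) was left out. Col4a2 passed in each of those. Col8a1 measured 3091, 2949 and 3293 normalised reads in DMSO and 2405, 2413 and 2447 after STM2457, a fall to 0.779 (adjusted p = 8.1e-08) with narrow treated values. Col18a1, the source of endostatin, fell from 169, 211 and 182 to 131, 156 and 162 (0.798, adjusted p = 0.011), but did not pass when DMSO replicate 2 (0.072) or STM2457 replicate 1 (0.091) was dropped.

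Col4a1 and Col4a2 lie head to head on chromosome 8, Col4a1 from 11198423 to 11312826 on the minus strand and Col4a2 from 11312805 to 11449287 on the plus strand. Their annotated starts overlap by 22 bases, shown in capitals with 4 flanking bases on each side (chr8:11312801-11312830, plus strand, RefSeq on GRCm38.p6), because this stretch lies at the start of both genes.
Col4a1 and Col4a2: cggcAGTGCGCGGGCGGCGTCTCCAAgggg
The ratio of Col4a1 to Col4a2 reads was 1.60, 1.65 and 1.57 in DMSO and 1.52, 1.51 and 1.53 after STM2457. The groups did not overlap, with means of 1.61 ± 0.04 and 1.52 ± 0.01 (SD, n = 3, two-sided exact permutation p = 0.10, the smallest that 3 against 3 libraries can give).

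Type VI collagen, built of one chain each from Col6a1, Col6a2 and another type VI gene, was followed in the same way. Col6a1 (chromosome 10, 76708792 to 76726168, minus strand) measured 2131, 2721 and 2387 normalised reads in DMSO and 1939, 2070 and 2252 after STM2457 (0.868 of DMSO, limma adjusted p = 0.14). Its neighbour Col6a2 (76595762 to 76623630, minus strand) measured 808, 1028 and 896 in DMSO and 1004, 973 and 1079 after STM2457 (1.12-fold, adjusted p = 0.065). For both genes the groups overlapped, with DMSO replicate 2 the highest control for each. Their ratio did not overlap: Col6a1 over Col6a2 stood at 2.64, 2.65 and 2.66 in the controls against 1.93, 2.13 and 2.09 in the treated libraries. The means were 2.65 ± 0.01 and 2.05 ± 0.10 (SD, n = 3, two-sided exact permutation p = 0.10, again the smallest possible). These 2 ratios were the only ones computed, and the Benjamini-Hochberg adjusted exact p was 0.10 for both. Taken singly, Col6a1 passed as lower without a filter on low values (9.1e-05), with the replicate block (0.0019), and without DMSO replicate 1 (0.0028) or STM2457 replicate 3 (0.05). Col6a2 passed as higher without the filter (0.01), with the block (0.032) and without DMSO replicate 2 (2.8e-04). Without the filter and with the block, the log2 differences stayed at -0.12 for Col6a1 and 0.09 for Col6a2, as in the main fit. Those fits changed only how the spread between libraries was judged. Their passes therefore do not settle whether either gene changed, since its groups overlapped. Of the genes that can supply the remaining chain, Col6a3 had 6 and 4 reads in the groups, Col6a4 had 5 and 5, Col6a6 had 1 and 0, and Col6a5 had none.

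**Figure D3:**
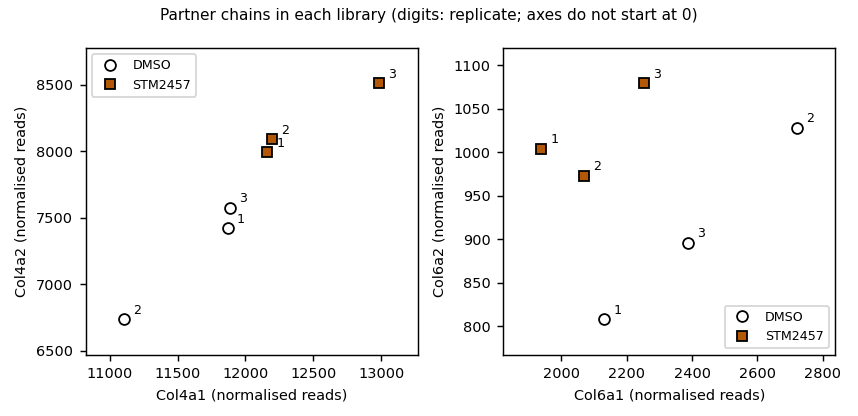
Normalised reads of partner chains plotted against each other in each library, Col4a1 with Col4a2 on the left and Col6a1 with Col6a2 on the right; open circles are DMSO, squares STM2457, and digits the replicate. In both panels the ratios of the groups did not overlap, at 1.57 to 1.65 in DMSO and 1.51 to 1.53 after STM2457 for Col4, and at 2.64 to 2.66 and 1.93 to 2.13 for Col6.

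Col7a1, whose product anchors basement membrane to the tissue beneath, had the largest rise of the tested members. The gene (chromosome 9, 108953586 to 108984875, plus strand) measured 79.1, 55.6 and 83.4 normalised reads in DMSO and 118, 104 and 112 after STM2457. That is 1.55-fold (limma adjusted p = 3.4e-04), with the controls more scattered than the treated libraries. Of the 9 fibril-associated collagens in the set, which decorate the surface of other fibrils, only 3 were tested, and all 3 fell. Over all tested genes 25.7% were called lower, and 3 genes describe themselves and do not test the class. Col16a1 fell from 3646, 3805 and 3869 normalised reads to 3132, 3129 and 3452 (0.857, adjusted p = 8.0e-05). Col12a1 fell from 535, 514 and 584 to 400, 364 and 448 (0.741, adjusted p = 2.0e-05). Col14a1, at 21, 19.9 and 20.1 in DMSO and 8.94, 8.94 and 4.95 after STM2457, fell to 0.377 (adjusted p = 6.8e-04). None of these groups overlapped, although Col14a1 rests on few reads.

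The lysyl hydroxylases each behaved differently. Plod2 encodes the enzyme that hydroxylates the telopeptide lysines used for stable cross-links (chromosome 9, 92542223 to 92608428, plus strand). It fell from 3822, 3218 and 3779 normalised reads to 2796, 2620 and 2784 (0.760, limma adjusted p = 5.6e-05). Plod3, which can also add sugars to hydroxylysine, rose from 1808, 1760 and 1750 to 2106, 2170 and 2120 (1.20-fold, adjusted p = 3.7e-06). Plod1 measured 3753 ± 63.7 in DMSO and 3896 ± 96.8 after STM2457 (SD, n = 3) and did not pass (adjusted p = 0.22). Of the lysyl oxidases, Loxl3 was the most abundant, at 1285 ± 37.4 and 1282 ± 17.5 normalised reads (SD, n = 3), a difference well inside the spread (adjusted p = 0.94). Loxl1, known for its part in elastic fibres, fell from 33.1, 28.8 and 29.1 to 14.9, 25.8 and 20.8 (0.667, adjusted p = 0.037). Loxl1 missed the threshold when DMSO replicate 1 (0.1) or 3 (0.055), or STM2457 replicate 1 (0.2) or 3 (0.072), was left out. Exons of Plod3 overlap those of Znhit1 on the other strand by 529 bases, those of Loxl3 overlap Htra2 by 535 and those of Plod2 overlap the transcript Gm38391 by 346. The sources used here do not say whether counting used strand, and part of the reads of these genes could belong to the gene opposite.

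Serpinh1 (chromosome 7, 99345376 to 99353239, minus strand) encodes the collagen chaperone. It measured 16037, 15000 and 15911 normalised reads in DMSO and 18398, 17965 and 17204 after STM2457, a rise of 1.14-fold with no overlap (limma adjusted p = 1.6e-04). Bmp1, the procollagen C-proteinase gene, stood at 2853 ± 22.9 and 2928 ± 106 (SD, n = 3, adjusted p = 0.43). Sparc, a collagen-binding protein of the matrix, measured 9787, 8435 and 9719 in DMSO and 9450, 9215 and 9462 after STM2457 (adjusted p = 0.84). Its DMSO replicate 2 lay below all other libraries. For both genes the groups overlapped.

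Fn1 encodes fibronectin, on which collagen fibrils are laid down, and lies on chromosome 1 (71585520 to 71653200, minus strand). Its 39984, 40240 and 39432 normalised reads in DMSO became 28240, 27591 and 29259 after STM2457 (0.711, deposited log2 difference -0.29, SE 0.02, limma adjusted p = 3.1e-11). Both groups were tight against the gap between them. Abi3bp (chromosome 16, 56477878 to 56690135, plus strand) measured 626, 672 and 671 in DMSO and 157, 169 and 189 after STM2457. The fall to 0.262 (deposited log2 difference -0.89, SE 0.03, adjusted p = 2.4e-16) was the largest of the 27 tested members. Together the 56 genes took 0.788% to 0.795% of all reads in the DMSO libraries and 0.688% to 0.722% in the STM2457 libraries, and the collagens alone 0.344% to 0.348% and 0.302% to 0.330%.

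Beyond the set, 80 other genes of the pathway in 5 lists were read from the same fit, and 55 of them were tested. Of these 24 rose and 13 fell (43.6% and 23.6%, against 30.7% and 25.7% of all tested genes), with a median fold of 1.06 against 1.01. The share that fell was thus near that of all genes. Each list below is small and was chosen with earlier results of these data known. Its counts describe it and are to be read against the same shares. Where a list had 5 or fewer calls in one direction all are named, and those past the 4 of smallest p in a list were chosen after their values were seen. Prolyl hydroxylation and folding, a list that also holds the lysyl oxidase Loxl4, had 7 of 15 higher and 4 lower. The 3-hydroxylation partners Crtap (1.26-fold, limma adjusted p = 2.8e-07) and P3h1 (1.27-fold), the folding isomerase Fkbp10 (1.22-fold) and the collagen galactosyltransferase Colgalt1 (1.19-fold) rose. The 4 that fell were the prolyl 4-hydroxylase alpha subunits P4ha1 (4840 ± 294 to 3749 ± 38.3 normalised reads, SD, n = 3, adjusted p = 5.6e-08) and P4ha2 (0.790), Loxl4 (0.752) and Ppib (0.911). P4ha3, the third alpha subunit, rose 1.49-fold at a low level, from 96.3 ± 8.78 to 144 ± 6.89 normalised reads (SD, n = 3). P4ha2 missed the threshold when DMSO replicate 1 was dropped (0.062).

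Of the genes for procollagen export and trimming, 3 of 12 were higher and 3 lower, near the shares over all tested genes. Mia3, whose product TANGO1 loads collagen into large carriers, rose 1.24-fold (limma adjusted p = 3.6e-07), and the proteinase enhancers Pcolce2 (1.38-fold) and Pcolce (1.12-fold) rose as well. Sec23a, a coat subunit (0.809, adjusted p = 1.3e-05), Klhl12, a ubiquitin ligase adaptor (0.831), and Mia2, a partner of TANGO1 (0.847), fell. The collagen receptors had 2 of 6 higher and 2 lower. The discoidin receptors moved apart: Ddr2 fell from 7411 ± 515 to 5789 ± 26.6 normalised reads and Ddr1 rose from 699 ± 50.1 to 890 ± 75.6 (SD, n = 3, adjusted p = 1.9e-07 and 7.7e-05). The integrin Itga10 fell to 0.536. Mrc2, which takes up collagen, rose 1.10-fold (adjusted p = 0.018). It missed the threshold after upper-quartile centring (0.25) and when DMSO replicate 1 (0.068) or 3 (0.074), or STM2457 replicate 1 (0.058) or 2 (0.064), was dropped.

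Collagen breakdown was the list with calls in 1 direction alone: 7 of 11 rose and 0 fell by limma. The number that fell was also 0 by limma-voom on the recovered reads and at an unadjusted limma p under 0.05. Those counts come from the same libraries and genes and add no separate evidence. This list too was chosen with earlier results of these data known, so its counts describe it and do not test it. Over all tested genes 30.7% were higher and 25.7% lower. The list's median fold was 1.20, against 1.01 over all genes, and Mmp2, Mmp13, Ctsb and Plau did not pass. Mmp14, a membrane collagenase, rose from 3942 ± 162 to 5665 ± 80.6 normalised reads, and Mmp10 rose from 51.3 ± 6.63 to 129 ± 21 (SD, n = 3, limma adjusted p = 3.4e-11 and 3.7e-08). The other 5 were Mmp3 (1.62-fold), the proteinase inhibitors Timp2 (1.23-fold) and Timp1 (1.20-fold), the lysosomal proteinase Ctsl (1.18-fold) and the urokinase receptor Plaur (1.24-fold), so the called genes included inhibitors as well as enzymes. Several of the pathway genes named share exon bases with another gene, which leaves the source of some of their reads uncertain. The longest such stretches were 2442 of 12128 exon bases in Fbn1 (with Gm9913, opposite strand), 1742 of 6489 in Ctsl (Gm47123, opposite), 1739 of 5186 in Itga10 (Gm42957, same strand) and 825 of 3305 in Ppib (Snx22, opposite). Fibril-binding matrix proteins had 5 of 11 higher and 4 lower. Tenascin C (Tnc) rose from 77.4 ± 23.3 to 154 ± 11.7 normalised reads and Thbs1 from 375 ± 42.7 to 532 ± 22.5 (SD, n = 3). Emilin1 (1.26-fold), Fbn1 (1.16-fold) and Fbln5 (1.21-fold) also rose. Fbln5 (adjusted p = 0.0088) missed the threshold after upper-quartile centring (0.069) and when replicate 1 of DMSO (0.07) or of STM2457 (0.057) was dropped. The collagen-binding proteoglycans Lum (0.289), also one of the fibroblast markers, and Bgn (0.466), both with means under 30 normalised reads in DMSO, fell, as did Thbs2 (0.798) and Tgfbi (0.703).

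**Figure D4:**
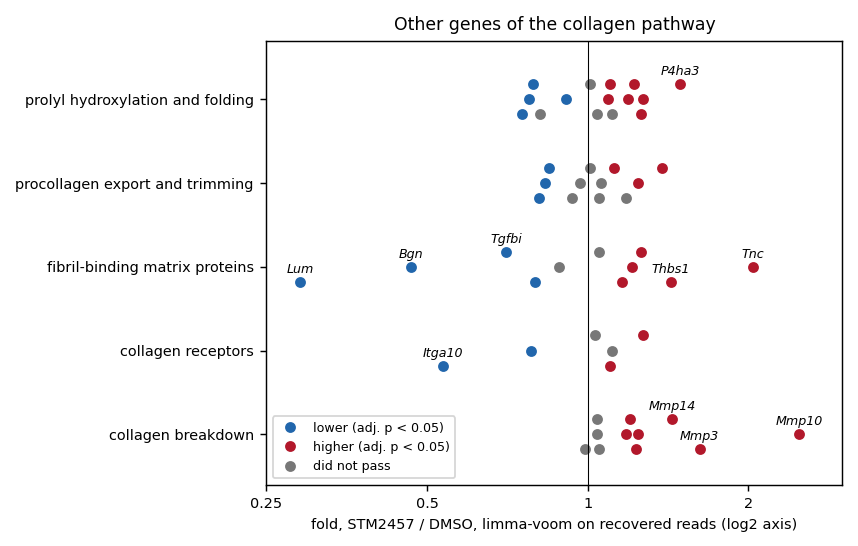
Fold of STM2457 over DMSO, fitted by limma-voom to the recovered reads, for the 55 tested pathway genes outside the set, 1 point per gene in 5 lists, on a log2 axis and coloured by the limma call. The row for collagen breakdown has 7 genes called higher and none lower, and the other 4 rows have calls on both sides of 1.

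Sequence features that the rule did not use were described without a test. RefSeq gave a promoter window for 18 of the 27 tested members, 6 of them higher, 6 lower and 6 that did not pass. In the 250 bases before the start, on either strand and in the first listed window, CCAAT was present in 8 of the 18, GGGCGG in 12 and TATAAA in 3. Of the 3 windows with TATAAA, those of Col11a2 and Plod1 belong to starts not found in the GENCODE transcripts of these genes. Over all 32851 listed windows of that length, more than 1 of which can belong to a gene, the shares were 33.8%, 32.7% and 12.4%. Those windows were not limited to tested genes, so the members and these shares are not compared like with like. The letters CCAAT stood in 4 of the 6 that were higher and 3 of the 6 that were lower, and GGGCGG in 4 and 5. Every higher member had a window, but of the 12 that fell, Abi3bp, Fn1, Col12a1, Col14a1, Plod2 and Loxl1 had none. GGACT, the commonest form of the m6A consensus, was counted on the transcript strand of each gene's longest coding transcript, with overlaps allowed. The tested members held a median of 1.52 per kilobase (0.43 to 4.03), against 1.04 over 10997 tested genes with a coding transcript. The 17 collagens among them held 1.67 and the 10 other members 1.14, nearer to the value over all genes. The median was 1.92 in the 6 members that rose, 1.23 in the 12 that fell and 1.52 in the 9 that did not pass. For all genes called higher, lower or neither it was 1.08, 1.00 and 1.02. Col7a1, which rose, held 27 copies in 9250 bases (2.92 per kilobase), but the highest density was that of Col16a1 (4.03), which fell.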

How the data were processed

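RNA-seq libraries of LLC cells, 3 with DMSO and 3 with STM2457, were grouped by the treatment in their titles, and column names gave each column's sample. HISAT2 2.2.1, featureCounts 2.0.1 (Subread), FastQC 0.11.9, DESeq2 and the GRCm38 build are named in the submitters' processing notes. The sources used here do not give the annotation, alignment settings, strand or transform. The authors deposited log2 values, 1 row per gene symbol. Of 55367 rows, 31229 are listed at 0 in all libraries. The values have the form of a regularised log2 transform. Its equations were inverted with Python 3.11.15 and scipy 1.17.1 (ridge penalty 60.27, dispersion 1.897 over the mean plus 0.0111, size factors 0.995 to 1.009). Recovered values were whole to within 0.05 reads in 98.3% of values for genes with a mean of 5 to under 100, 96.0% to under 500, 87.0% to under 2000 and 53.2% above, and were rounded.

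Genes with a mean of at least 3.32 (log2 of 10) were tested, 12618 in all, with the group as the only term in limma 3.58.1 (lmFit, eBayes with trend and robust priors, statmod 1.5.0, R 4.3.3). Benjamini-Hochberg adjustment ran over those genes, and 0.05 was the threshold. The planned design named limma for log2 values. Folds came from limma-voom on the recovered reads. On simulated data for STM2457 against DMSO (12548 genes, dispersion 0.00054), limma found 96 of 99 genes made to differ at a log2 fold of 1, 86 of 100 at 0.5, and 7 of 12349 unchanged genes. The simulation changed 200 genes and gave all genes the same dispersion, while 3868 higher and 3240 lower were called in the data. Its rates need not hold there. Changes as small as that of Col4a1 (log2 fold 0.10) were not simulated. Lengths, positions and overlaps came from GENCODE M21. The members and lists were chosen with earlier results of these data known. Values per library are given for members that passed with a fold of at least 1.25 in either direction and for the 5 of highest level, and for others where a comparison turns on them. Of each pathway list up to 4 genes of smallest adjusted p are named. Alternatives were limma-voom, upper-quartile centring, no filter or one of 100 reads, each replicate left out in turn, and the replicate number as a block.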

Additional observations from a re-analysis of the deposited data

How the results depend on the processing

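Across 11 alternatives, 18 of the 27 tested members kept their side of the threshold in each one that tested them, and no called member changed direction. Col1a2, Col7a1 and Col14a1, among others, fell below the stricter filter and were not tested under it. Of the 18, Bmp1, Plod1, Sparc and Loxl3 passed in none and changed sign in some: with upper-quartile centring the log2 difference of Bmp1 went from 0.02 to -0.02 and that of Plod1 from 0.03 to -0.01, and without DMSO replicate 2 that of Sparc went from 0.01 to -0.03. The count of members higher and lower was 6 and 12 with limma, the same with limma-voom, 7 and 14 without a filter on low values, 5 and 8 of fewer genes with a filter of 100 reads, and 5 and 15 with upper-quartile centring. Leaving out each library in turn gave 5 to 6 higher and 10 to 12 lower. With the replicate block the counts were 7 and 13, with Col6a1 and Col6a2 added. Both genes were also called without the filter. In both fits their log2 differences were those of the main fit, so these added calls do not settle either gene. The replicate numbers are only numbers: same-numbered libraries correlated in their deviations from the group means at 0.05, 0.01 and 0.04. Counts for the pathway genes ran from 20 to 25 higher and 10 to 16 lower, and for all genes from 2819 to 3868 and 2418 to 4814. The cause of these differences was not tested. Depth limits the genes under about 30 reads, such as Col14a1, Loxl1, Lum and Bgn.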
